A study of Mus musculus with 5 samples.

Results

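The amylase genes were the 6 rows, of 23284 gene rows in each deposited table, whose symbol starts with Amy1 or Amy2: the salivary-type Amy1 and the pancreatic Amy2a2, Amy2a3, Amy2a4, Amy2a5 and Amy2b. They were read in RNA-seq libraries of primary acinar cells, which secrete the digestive enzymes of the pancreas, from C57BL/6 mice aged 8 weeks. Knockout libraries numbered 3 and carried the genotype Arid1afl/fl;p48-Cre, where both floxed copies of Arid1a, a subunit gene of the SWI/SNF chromatin remodelling complex, are open to recombination. Control libraries numbered 2 and carried p48-Cre alone, so both groups had the Cre, which the p48 (Ptf1a) locus expresses throughout the pancreatic lineage and not in acinar cells alone. The labels do not say whether each library came from its own animal, so p-values measure only how far these libraries scatter, part of which may be technical. In bulk RNA, fewer acinar cells and less amylase RNA per cell cannot be told apart.

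Alpha-amylase cuts the internal bonds of starch and glycogen, and pancreatic acinar cells store it in zymogen granules and release it into the duct. Mice carry a cluster of amylase genes, with Amy1 known as the form of the parotid gland and, from a further start site, of liver, and the Amy2 copies as the forms of the pancreas. The Amy2 genes are classical targets of PTF1, the acinar transcription factor complex that contains Ptf1a and Rbpjl.

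The copies differ so little that their sequences bear on how each can be counted. The stretch printed here is bases 181 to 240 of the coding sequence in the GENCODE M21 transcripts (GRCm38), chosen because Amy1, Amy2b and the Amy2a copies differ within it. Capitals mark bases that are not those of Amy2a2.
Amy1: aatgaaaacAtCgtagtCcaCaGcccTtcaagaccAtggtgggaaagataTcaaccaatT
Amy2b: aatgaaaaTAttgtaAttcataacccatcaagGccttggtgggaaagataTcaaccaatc
Amy2a2: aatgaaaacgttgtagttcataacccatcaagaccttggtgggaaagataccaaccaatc
Amy2a3, Amy2a4 and Amy2a5 read as Amy2a2 over this stretch, whereas Amy2b had 5 differences and Amy1 had 9. Over the whole coding sequence of 1524 bases, Amy2a2, Amy2a3, Amy2a4 and Amy2a5 were 100% identical. Amy2b was 98.1% identical to Amy2a2 over aligned bases, and Amy1 was 89.9% identical.

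Sequence words show how much of each transcript a read could place. Of the 50-base words in the coding sequences of Amy2a2, Amy2a3, Amy2a4 and Amy2a5, 100% also lay in another amylase gene, against 40.5% of those of Amy2b and 3.5% of those of Amy1. Over the complete transcripts, which for Amy2a5 include untranslated sequence of its own, 42.8% of the 50-base words of Amy2a5 were found in no other GENCODE gene, against 0% for Amy2a2, Amy2a3 and Amy2a4. The same figure was 59.8% for Amy2b and 97.3% for Amy1. With words of 100 bases, 88.6% of Amy2b and 100% of Amy1 were unique. GENCODE lists Amy2b as an unprocessed pseudogene, and RefSeq lists it as protein-coding.

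**Figure D1:**
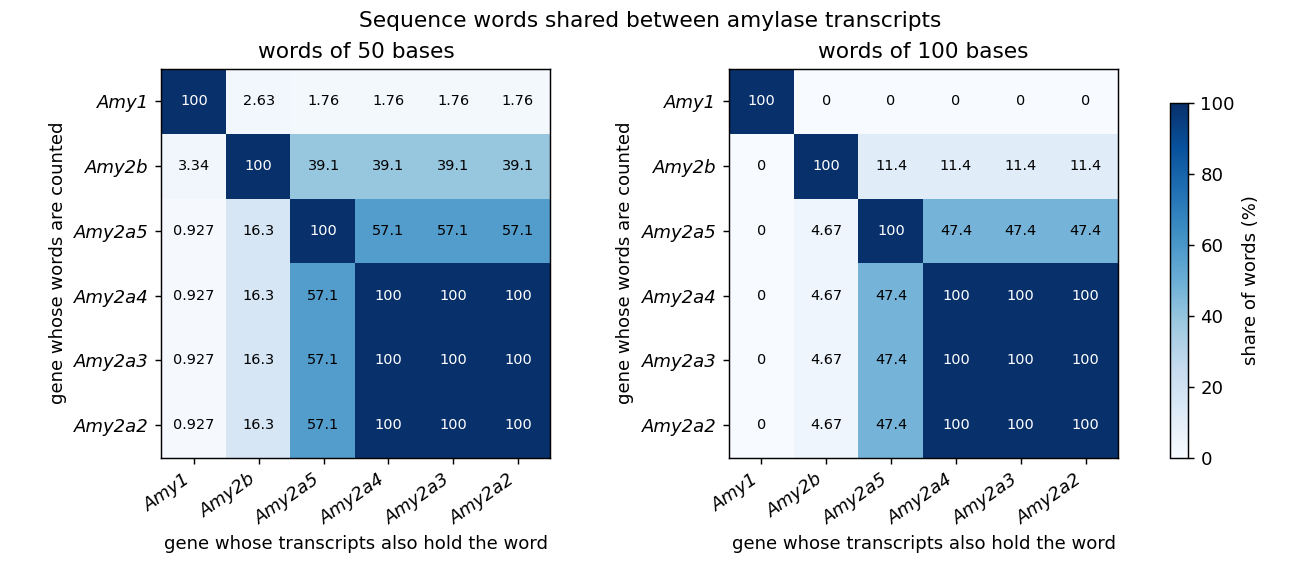
Share of the sequence words of each amylase transcript (rows) that also occur in transcripts of each other member (columns), for words of 50 bases (left) and 100 bases (right), in percent, with darker cells for more sharing. Amy2a2, Amy2a3 and Amy2a4 shared 100% of their words, Amy2b shared 39.1% of its 50-base words with each Amy2a copy, and Amy1 shared at most 2.63%.

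The libraries differed in depth along the line of genotype. Rn45s, the ribosomal RNA precursor, and Lars2 were left out of library sizes. What remained was 3155357 to 3568906 counts in the knockout libraries, against 67514 and 72006 in the control libraries. Rn45s took 6.78% to 10.9% of all counts in the knockouts and 72.6% and 82.2% in the controls. CPM values here are counts over the library total without Rn45s and Lars2, on the usual CPM scale. A floor of 3 counts equalled 0.841 to 0.951 CPM in a knockout library, against 44.4 and 41.7 CPM in the controls. In every comparison between the groups, genotype, depth and the Rn45s share cannot be told apart. Arid1a itself had 44, 121 and 42 counts in the knockouts and 0 and 3 in the controls (log2 fold change -0.07 ± 1.64 (SE), adjusted p = 0.985, edgeR quasi-likelihood test). Because a count over the whole gene can include exons that are not floxed, these values are no check of the genotype.

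Amy2a2, Amy2a3, Amy2a4 and Amy2a5, the pancreatic copies with one coding sequence, were listed at 0 counts in all 5 libraries. These 4 of 6 members stood among the 6314 rows (27.1% of 23284) that had no count in any library. The 4 copies at 0 were the 4 whose coding sequence lay wholly in other members, as shown by the words above. Over its complete transcript, however, Amy2a5 had 42.8% of its 50-base words in no other GENCODE gene and was at 0 too. Whether reads of these copies were left uncounted was not tested, so a 0 here is a listed value and no measure of their RNA. All pancreatic-type amylase counts in the tables, 9200 in the knockouts and 50 in the controls, were assigned to Amy2b. Each Amy2a copy holds 39.1% of the 50-base words of Amy2b, and reads of those words cannot be told apart by sequence.

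Amy1, the salivary-type gene, was higher in the knockout libraries. It had 4095, 3196 and 154 counts in the knockouts, against 1 and 0 in the controls. On the CPM scale this was 1298, 896 and 46.0 in the knockouts and 14.8 and 0 in the controls. The groups did not overlap, but knockout 3 lay far below the other knockouts and close to the level that 3 counts mark in a control. The mean was 746 ± 639 CPM in the knockouts (SD, n = 3) and 7.41 ± 10.5 CPM in the controls (SD, n = 2). Pooled within groups, Amy1 stood at 739 CPM in the knockouts and 7.17 CPM in the controls, which is 103-fold higher (exact 95% interval 18.5 to 4075). Without knockout 1 the ratio was 67.6, and without control 2 it was 49.9. The interval is wide because the controls held 1 count, and like all intervals here it covers counting error only.

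The edgeR quasi-likelihood test called Amy1 higher, at a log2 fold change of 6.68 with an SE of 1.5 and an adjusted p of 0.00246. Amy1 was higher in 3 of 3 knockout libraries than in either control. By size alone its fold change was not extreme, at percentile 76.6 of the tested genes. The same test called 0.193% of 8291 tested genes higher and 1.6% lower. Amy1 was 1 of the 16 genes called higher, against 133 called lower, and with TMM factors on the same table the split was 147 higher (1.77%) and 71 lower (0.856%). Amy1 passes the low-count filter through the knockouts alone. All 3 knockout libraries lay above both controls for 30.3% of the 16968 genes with a count, so the order of the libraries alone was common. The call was lost with TMM on the complete table, at a log2 fold change of 8.22 (adjusted p = 0.0572, edgeR), where 0.0605% of genes were called higher and the median over all genes was 2.05. It was also lost with limma-voom at 4.92 (adjusted p = 0.973) and without knockout 1 at 6.01 (adjusted p = 0.637, edgeR), each of which called 0% higher. Without control 1 the remaining control had 0 counts, and the fitted value of 13.89 is no bound.

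The Amy1 count expected in a control at a given level is that level times the control total. At the level of knockout 1, 87.6 and 93.4 counts would have been expected in control 1 and control 2, and at that of knockout 2, 60.5 and 64.5. At the level of knockout 3, 3.11 and 3.31 would have been expected. The observed counts were 1 in control 1 and 0 in control 2, only a few counts below those expected at knockout 3. These expected counts rest on the totals alone. Rn45s also took 72.6% and 82.2% of all counts in the controls, and its part in the low Amy1 counts was not tested.

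Amy2b, the pancreatic-type row with counts, overlapped between the groups. It had 3653, 4382 and 1165 counts in the knockouts and 11 and 39 in the controls, which was 1158, 1228 and 348 CPM in the knockouts and 163 and 542 CPM in the controls. Knockout 1 and knockout 2 lay above both controls, and knockout 3 lay between them. The mean was 911 ± 489 CPM in the knockouts (SD, n = 3) and 352 ± 268 CPM in the controls (SD, n = 2). The pooled ratio was 2.55 (exact 95% interval 1.93 to 3.44), without control 1 it was 1.69, and without control 2 it was 5.61. The log2 fold change of 1.37 ± 0.94 (SE) did not pass (adjusted p = 0.552, edgeR quasi-likelihood test), against a median of 0.22 over all tested genes. With TMM on the complete table it was 3.10 (adjusted p = 0.0857, edgeR) and with TMM without Rn45s and Lars2 3.14 (adjusted p = 0.0769, edgeR), against medians of 2.05 and 1.93 over all genes. Leaving out control 1 gave 0.75 and leaving out control 2 gave 2.48. Only DESeq2 with its own size factors, among the alternatives run, called it (log2 fold change 2.63, adjusted p = 0.0121), in a test that called 7.36% of genes higher.

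**Figure D2:**
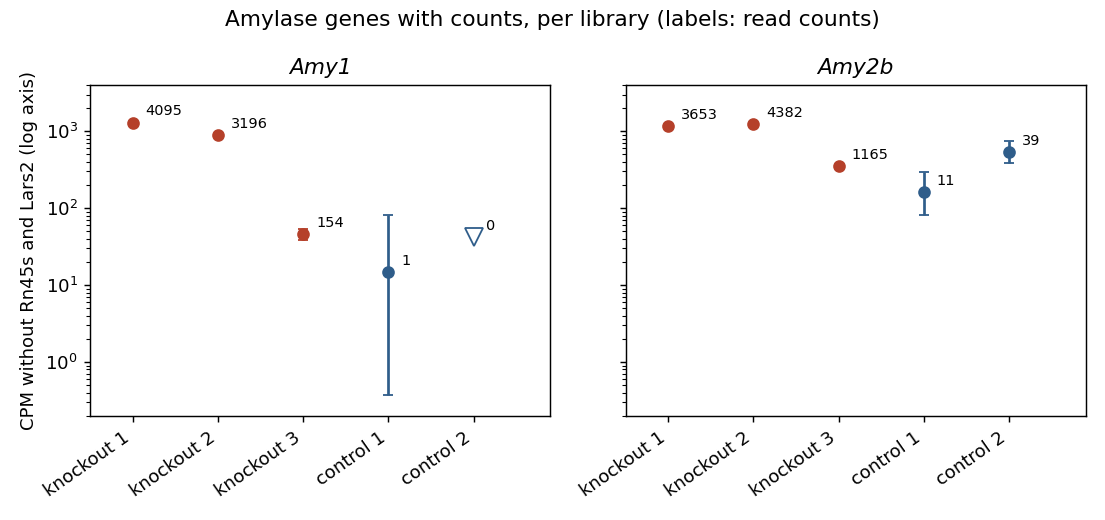
CPM without Rn45s and Lars2 (log axis) of Amy1 (left) and Amy2b (right) in each library, knockout in red and control in blue, with exact 95% Poisson intervals of the count and the read count beside each point. The open triangle marks the floor of 3 counts, 41.7 CPM, for Amy1 in control 2, which had 0 counts; knockout 3 was the lowest knockout for both genes.

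The sum of the 6 rows held only Amy1 and Amy2b counts, since the other 4 rows were at 0, so reads left uncounted would be missing from it too. The amylase sum was 2456, 2123 and 394 CPM in the knockouts and 178 and 542 CPM in the controls, so knockout 3 again lay between the controls. Its log2 fold change was 2.2 ± 0.89 (SE) and did not pass (adjusted p = 0.207, edgeR quasi-likelihood test). With TMM on the complete table it was 3.87 (adjusted p = 0.0688, edgeR) and with TMM without Rn45s and Lars2 3.91 (adjusted p = 0.0571, edgeR). DESeq2 with its own size factors called the sum (log2 fold change 3.40, adjusted p = 0.00247).

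The share of Amy1 in the amylase counts can be read within a library, where scaling cancels. With the Amy2a rows at 0 it is a share of Amy1 and Amy2b alone, and no measure of all pancreatic amylase RNA. Amy1 made up 52.9%, 42.2% and 11.7% of the amylase counts in knockout 1, knockout 2 and knockout 3. In the controls it made up 8.33% (1 of 12 counts, exact binomial 95% interval 0.211% to 38.5%) and 0% (0 of 39 counts, upper limit 9.03%). The interval of knockout 3, 9.99% to 13.5%, lay inside that of control 1, while the intervals of knockout 1 (51.7% to 54%) and knockout 2 (41.1% to 43.3%) lay above both control intervals. The group means were 35.6 ± 21.4% in the knockouts (SD, n = 3) and 4.17 ± 5.89% in the controls (SD, n = 2), a difference of 31.4 percentage points. A two-sided exact permutation test over libraries gave p = 0.2, the smallest that 3 against 2 libraries allow.

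**Figure D3:**
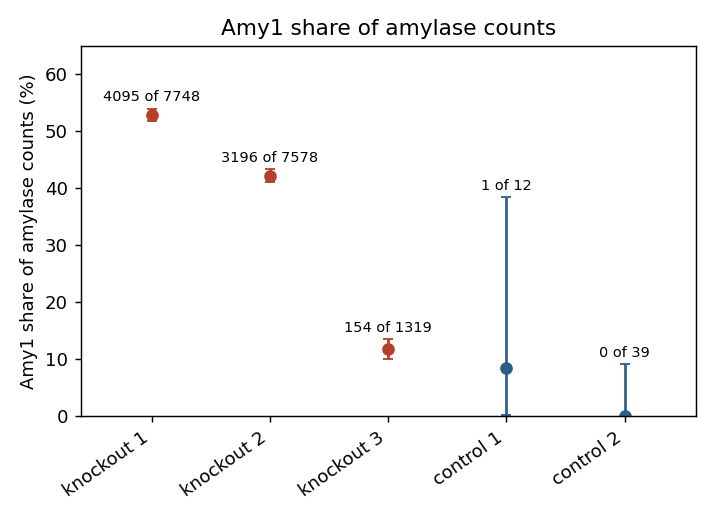
Share of Amy1 in all amylase counts of each library (percent), knockout in red and control in blue, with exact binomial 95% intervals and the counts above each point. Knockout 1 and knockout 2 stood at 52.9% and 42.2%, and knockout 3 at 11.7%, inside the interval of control 1.

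Per GENCODE transcript length, Amy2b was above Amy1 in every library. The annotation behind the counts is not known, so other lengths may apply. In knockout 1 the order rests on these lengths, since Amy1 had 4095 counts there and Amy2b 3653. Scaled to transcripts of 1985 bases for Amy1 and 1577 bases for Amy2b, Amy1 had 654, 451 and 23.2 CPM per kilobase in the knockouts and 7.46 and 0 in the controls. Amy2b had 734, 779 and 221 CPM per kilobase in the knockouts and 103 and 343 in the controls. In knockout 1 the levels of both genes were close, and in knockout 3 they were far apart. In counts, Amy1 stood at 1.12, 0.729 and 0.132 reads per Amy2b read in the knockouts and at 0.0909 and 0 in the controls.

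The knockout libraries differed among themselves more for Amy1 than for Amy2b. The highest knockout CPM was 28.2 times the lowest for Amy1 and 3.53 times for Amy2b. Over the 316 genes that averaged 100 CPM or more, where the median was 2.59 times, 7 genes had a larger ratio than Amy1 and 120 a larger one than Amy2b. Knockout 3 had the lowest CPM of the 3 knockouts for 61.1% of these genes. Digestive enzymes took 80.2% of the counts of knockout 3, against 71.6% in knockout 1 and 62.2% in knockout 2. The part of this share in the lower amylase levels was not tested.

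The Amy1 counts of the gene row can come from either of its start sites, which RefSeq places apart, so the 250 bases before each are shown beside those before Amy2b (GRCm38.p6, minus strand, 5′ to 3′). Capitals mark the E-box CANNTG, one part of the site that PTF1 is known to bind, and TATAAA on the printed strand.
Amy1 upstream start, chr3:113577751-113578000: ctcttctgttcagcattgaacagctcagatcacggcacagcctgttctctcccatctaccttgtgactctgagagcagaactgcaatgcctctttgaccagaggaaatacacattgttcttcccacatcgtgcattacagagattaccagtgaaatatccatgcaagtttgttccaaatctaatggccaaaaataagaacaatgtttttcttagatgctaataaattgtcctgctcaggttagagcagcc
Amy1 downstream start, chr3:113574763-113575012: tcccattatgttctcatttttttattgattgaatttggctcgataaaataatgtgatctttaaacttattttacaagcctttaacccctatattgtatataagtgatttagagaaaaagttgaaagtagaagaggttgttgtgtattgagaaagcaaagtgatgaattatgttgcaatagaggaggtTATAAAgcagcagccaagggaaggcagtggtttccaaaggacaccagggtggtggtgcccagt
Amy2b, chr3:113156728-113156977: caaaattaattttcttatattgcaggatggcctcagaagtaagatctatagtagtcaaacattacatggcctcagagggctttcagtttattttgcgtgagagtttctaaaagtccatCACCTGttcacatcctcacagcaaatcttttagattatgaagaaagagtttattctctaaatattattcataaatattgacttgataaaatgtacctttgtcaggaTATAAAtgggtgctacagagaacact
The Amy2b window held 1 E-box, which began 132 bases before the start, and 1 TATAAA. The Amy2a5 window likewise held 1 E-box, CAGCTG, which began 132 bases before the start, and 1 TATAAA. The windows of Amy2a2, Amy2a3 and Amy2a4 held 1 E-box each, CAGTTG, which began 118 bases before their listed starts, and no TATAAA. From the end of CAGTTG to the listed start, these windows read the same as the opening of the Amy2a5 window. They thus end before the stretch that holds CAGCTG and TATAAA in Amy2a5. The bases after their listed starts were not read, so the windows do not show that these copies differ from Amy2a5 there. Neither Amy1 window held an E-box, and the downstream one held 1 TATAAA. The E-box letters CANNTG read the same on both strands and were present in 66.2% of 32851 RefSeq windows of this length, and TATAAA in 7.59%. The other part of the PTF1 site, searched as TTTCCC on both strands, was in none of these 3 windows and in 21.9% of all windows. These matches describe the letters of the windows alone.

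Counted amylase was a small part of the counted enzyme RNA. With the Amy2a rows at 0 it is no measure of all pancreatic amylase RNA. The 6 rows took 0.342%, 0.34% and 0.0492% of the amylase and digestive enzyme counts in the knockouts and 0.0299% and 0.0823% in the controls (exact permutation p = 0.4, two-sided). The list of digestive enzymes held 28 genes, of which 27 were in the tables, and 20 to 23 of these, depending on the library, stood above Amy2b in CPM. Of all counts without Rn45s and Lars2, the enzyme list took 62.2% to 80.2% in the knockouts and 59.4% and 65.8% in the controls.

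Among the 26 tested enzymes of that list, 4 were called higher and 2 lower (edgeR quasi-likelihood test), against 0.193% of all genes higher and 1.6% lower, with a median log2 fold change of 0.53 against 0.22 over all tested genes. The 4 called higher were trypsinogens or trypsin-like models: Gm2663 (adjusted p = 0.00141), 1810009J06Rik (adjusted p = 0.00638), Try10 (adjusted p = 0.00884) and Prss3 (adjusted p = 0.0137, edgeR). Gm2663 and 1810009J06Rik had 0 counts in both controls, so they passed the low-count filter through the knockouts alone. The share of enzymes called higher rests in part on them. Reads of trypsinogen copies may also pass between rows. Cela2a, an elastase, was lower at a log2 fold change of -2.55 (adjusted p = 7.53e-05), and Cel, the bile salt-stimulated lipase, at -2.28 (adjusted p = 0.0055, edgeR). Of these enzymes, 2 were called higher and 0 lower with TMM on the complete table (17 of 26 at an unadjusted p under 0.05), where 0.0605% of all genes were called higher. DESeq2 with its own size factors called 14 higher and 0 lower (18 at an unadjusted p under 0.05), against 7.36% of all genes higher and 3.63% lower. The pooled ratio of Amy1, 103, was above that of every listed enzyme with a control count, of which Prss1, a trypsinogen, came next at 31. Both ratios rest on 1 control count. Their exact 95% intervals, 18.5 to 4075 and 5.56 to 1225, overlap, so the order of these genes is not settled. Prss1 was not called (adjusted p = 0.104, edgeR). Amy2b lay between Pla2g1b, a phospholipase at a pooled ratio of 3.19, and Klk1, tissue kallikrein, at 2.34.

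**Figure D4:**
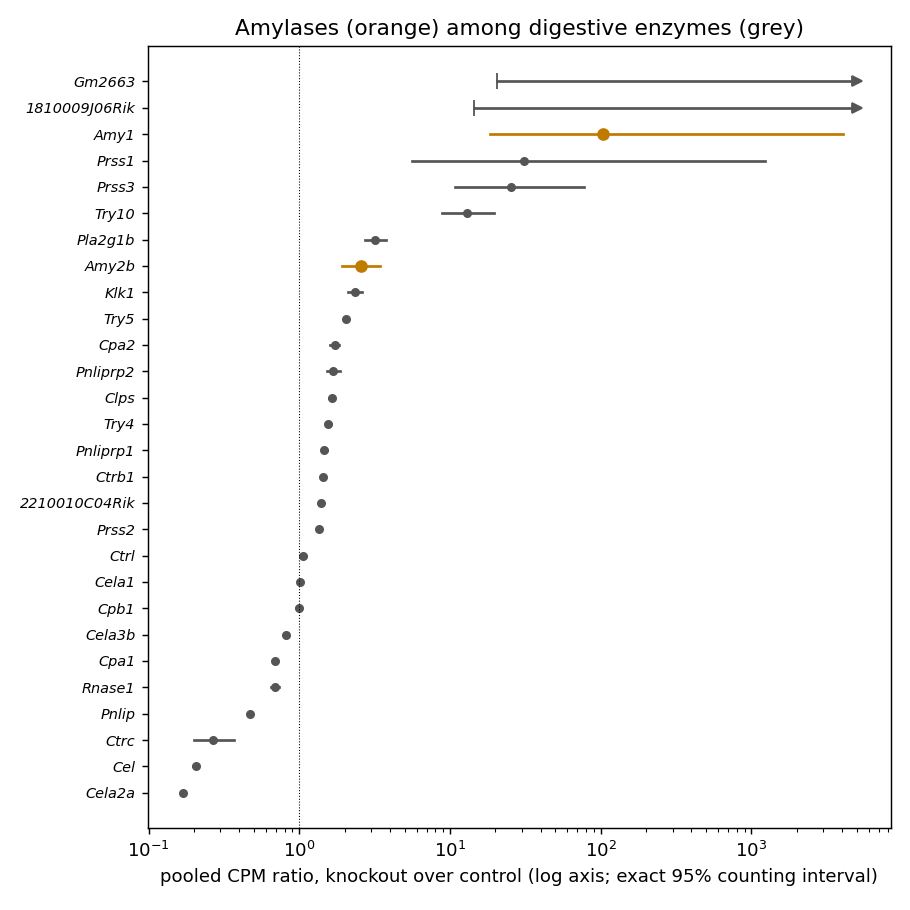
Pooled CPM ratio of knockout over control libraries (log axis) with exact 95% counting intervals for the amylases (orange) and the digestive enzymes list (grey; Dnase1, with 1 count in all, is left out). Arrows mark genes with no control count, drawn from their lower limit; Amy1 lay at 103 and Amy2b at 2.55.

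The genes whose profile over the 5 libraries was most like the summed Amy2 rows were Gp2, Dmbt1, Nupr1, Klk1 and Reg1. Likeness was the root mean square difference of centred log2(CPM + 10) values, over 37 genes that averaged 1000 CPM or more, whose median was 1.22. Gp2, a glycoprotein of the zymogen granule membrane, was nearest at 0.302. It had 12818, 11346 and 3784 CPM in the knockouts and 2903 and 5611 CPM in the controls, so it too was lowest among knockouts in knockout 3 and lower in control 1 than in control 2. Dmbt1, a secreted scavenger receptor protein (0.316), Nupr1, a stress-response gene (0.345), Klk1 (0.51) and Reg1, a secreted lectin-like protein (0.739), followed. For Amy1 the nearest gene was Reg3b at 1.7, against a median of 2.8 over the same genes, and this second search was added after the Amy1 values were seen. Reg3b, an antimicrobial lectin, was highest in knockout 1, with 6440, 1324 and 1639 CPM in the knockouts and 14.8 and 27.8 CPM in the controls.

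**Figure D5:**
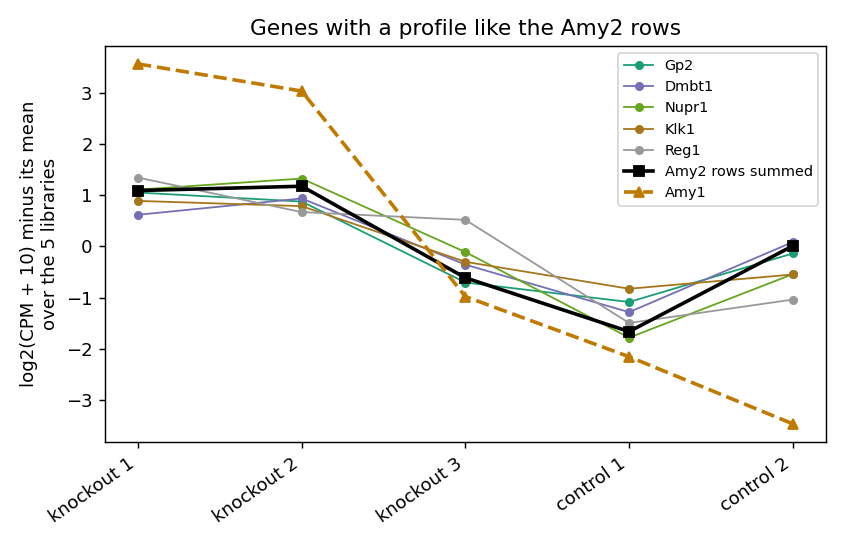
Centred log2(CPM + 10) of the summed Amy2 rows (black), Amy1 (dashed orange) and the 5 genes nearest to the Amy2 rows, by library, knockouts left of controls. Gp2, Dmbt1 and Nupr1 followed the Amy2 rows within a root mean square difference of 0.345, and Amy1 spanned a wider range.

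Enzymes of starch and glycogen breakdown other than the amylases were near the limit of detection in the controls. Of 18 genes, 10 had no count in either control and 8 were tested. Of these, 0 were called by the edgeR test on the totals used here (2 at an unadjusted p under 0.05), which called 0.193% of all genes higher and 1.6% lower. Among the alternatives that kept both controls, 0 were called higher. Fits that called 1 lower were upper quartile factors (354 of 8291 genes lower), totals without the enzymes (328 of 7483) and DESeq2 with its own size factors (301 of 8291, 3.63%). Fits that called 2 lower were no low-count filter (898 of 16968 genes lower), 1 CPM in 2 libraries (388 of 10967) and DESeq2 with the totals (468 of 8291). In the edgeR fit on the totals used here the median log2 fold change was -0.76. The intestinal maltase-glucoamylase Mgam and sucrase-isomaltase Sis had 3 counts and 1 count over all libraries, all in knockout 2. The highest means over the 5 libraries, set largely by control 2, were those of Phka2, a regulatory subunit of phosphorylase kinase, with 3, 27 and 5 counts in the knockouts and 1 and 13 in the controls, and Pygl, liver glycogen phosphorylase, with 4, 8 and 2 counts in the knockouts and 0 and 10 in the controls.

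Of 9 transcription factors of the acinar programme, 0 were called by the same edgeR test (1 at an unadjusted p under 0.05), against 0.193% of all genes higher and 1.6% lower. The 1 was Gata4 (log2 fold change -3.88, adjusted p = 0.106, edgeR), with 38, 61 and 7 counts in the knockouts and 2 and 20 in the controls. Among the alternatives that kept both controls, 0 were called higher. Fits that called 1 lower were upper quartile factors (354 of 8291 genes lower), totals without the enzymes (328 of 7483), DESeq2 with its own size factors (301 of 8291) and with the totals (468 of 8291). In the edgeR fit on the totals used here the median log2 fold change was -0.44. Ptf1a had 85, 94 and 14 counts in the knockouts and 0 and 0 in the controls, the fewest knockout counts again in knockout 3. Its knockout levels of 26.9, 26.3 and 4.19 CPM lay below the 3-count floor of the controls, 44.4 and 41.7 CPM. Rbpjl, the partner of Ptf1a in PTF1, had 242, 489 and 575 counts in the knockouts and 10 and 0 in the controls. In CPM it stood at 76.7, 137 and 172 in the knockouts, highest in knockout 3, and at 148 and 0 in the controls. Bhlha15, the secretory cell factor also called Mist1, had 217, 359 and 309 counts in the knockouts and 0 and 17 in the controls. That is 68.8, 101 and 92.4 CPM against 0 and 236 CPM, so control 2 lay above every knockout.

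Amy1 is also a transcript of salivary gland and liver, whose markers were therefore read beside it. Among the 14 salivary markers with a row, 11 had no count in any library, among them Bpifa2, Smr2, Muc19 and Lpo. The list summed to 9.82, 27.2 and 7.77 CPM in the knockouts and 0 and 0 CPM in the controls, nearly all of it Aqp5, a water channel, with 30, 96 and 26 counts in the knockouts. Of 12 liver markers, Fgb and Tat had no count, and the list summed to 91.3, 218 and 89.1 CPM in the knockouts and 44.4 and 27.8 CPM in the controls. Both sums were highest in knockout 2, and Amy1 was highest in knockout 1. The part of salivary or liver RNA in the Amy1 values was not tested. Ttr was the largest liver marker in each knockout, at 35.2, 123 and 70.6 CPM, and had no control count. Ahsg, with no control count either, had 18.1, 75.1 and 0.598 CPM in the knockouts. Alb, serum albumin, had 3, 9 and 7 counts in the knockouts and 0 and 2 in the controls. In CPM this was 0.951, 2.52 and 2.09 against 0 and 27.8. The control sums of the liver list were 3 counts of Hp in control 1 and the 2 of Alb in control 2, no more than the 3-count floor.

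Markers of other pancreatic cells moved with the libraries too. Duct markers summed to 383, 1197 and 271 CPM in the knockouts and 755 and 653 CPM in the controls (51 and 47 counts). Islet markers summed to 174, 985 and 215 CPM in the knockouts and 104 and 708 CPM in the controls (7 and 51 counts). Stromal, vascular and immune markers summed to 143, 448 and 80.1 CPM in the knockouts and 163 and 167 CPM in the controls. These control sums were 11 counts of Cd74 alone in control 1 and 12 counts of Col1a1 alone in control 2. All 3 sums were highest in knockout 2 among the knockouts, whereas Amy1 was highest in knockout 1. Their part in the amylase values was not tested.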

How the data were processed

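Libraries of poly(A) RNA from acinar cells, left to recover in serum-containing medium after digestion, were made with a TruSeq RNA kit, per the labels' protocols; this kit does not mark strand. The deposited values are whole-number read counts per gene symbol. Per the submitters' processing notes, the build was mm9 and the tools were HTSeq 0.9.1, TopHat2 2.1.1, Cuffdiff 2.2.1.5 and Cuffnorm 2.2.1.2, with no roles stated. How multiply matching reads were counted, and against which annotation, is not given in the sources used here. Libraries ran from 291677 to 4049215 counts.

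Counts without Rn45s and Lars2 were fitted with edgeR 4.0.16 (R 4.3.3; glmQLFit, robust; group only; filterByExpr; library size the remaining total, no further factor), with calls at an adjusted p (Benjamini-Hochberg) under 0.05. The SE of a log2 fold change is its size over the root of the F statistic. Pooled ratios have exact 95% binomial intervals. Alternatives were 5 other scalings, 2 other filters, DESeq2 1.42.0, limma-voom (3.58.1), the replicate block and each library left out.

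Members, gene lists, scale and tests were chosen with earlier results of these data known. Every member is named, and from each gene list its called members or, with none called, its 2 most abundant. Mgam, Sis, Ptf1a, Gata4, the markers and Reg3b were named after their values were seen. Sequences came from GENCODE M21 and RefSeq (GRCm38.p6), matched by symbol for all 6 members, and because the build differs from mm9, only the RefSeq windows carry coordinates. Replicates of a group were not copies of one library (chi-square per degree of freedom of 29.9 or more).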

Additional observations from a re-analysis of the deposited data

How the results depend on the processing

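Amy1 kept a positive log2 fold change under all 16 alternatives. Its call was lost under 3, all of which kept both controls, and the cause was not tested. Other calls lay near the threshold. The adjusted p (edgeR) was 0.0430 with TMM without Rn45s and Lars2, 0.0453 with RLE and 0.0462 with upper quartile factors, against 0.00246 in the main fit. Amy2b and the amylase sum kept their direction throughout. Among the alternatives, only DESeq2 with its own size factors called them, with the sum at 3.40. With a library left out the sum ran from 1.61 to 3.22, the difference in Amy1 share from 22.8 to 43.3 percentage points and the difference in amylase share of enzyme counts from 0.139 to 0.285 percentage points. Counts of called genes differed with the scaling and the tool. Against 16 higher and 133 lower there were 5 and 27 with TMM on the complete table, 147 and 71 with TMM without Rn45s and Lars2, and 53 and 328 with totals without the enzymes. DESeq2 gave 610 and 301 with its own size factors and 43 and 468 with the totals, and limma-voom 0 and 43 (773 genes at an unadjusted p under 0.05). The lower calls numbered 81 with RLE factors, 354 with upper quartile factors, 898 with no low-count filter and 388 with a filter of 1 CPM in 2 libraries. Leaving out a library gave 0 to 19 higher and 4 (without knockout 1) to 378 (without control 1) lower; the 0, without knockout 1, stood beside 161 genes at an unadjusted p under 0.05 (edgeR). The median log2 fold change of all genes was 0.22, but 2.05 with TMM on the complete table, 6.06 without control 1 and 5.57 without control 2, where Amy1 stood at 5.65. Whether the shared replicate numbers pair the libraries was not settled (correlation of deviations -0.03 for number 1 and -0.02 for number 2). With only 2 controls of low depth, whose deviations mirror each other, such low correlations cannot exclude pairing. With the replicate block there were 4 genes called higher and 5 lower. Amy1 then stood at 7.36 (adjusted p = 0.0473, edgeR) and the sum at 2.85. The paired differences in share were 43.3 and 0.285 percentage points. Depth limits every control value: 1 count was 14.8 and 13.9 CPM there.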
